A study of Drosophila melanogaster with 8 samples.

Results

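The H3K27me3 profile of comr mutant testes was described as 114670 windows of 1 kb on the chromosome sequences X, 2L, 2R, 3L, 3R and 4 of the dm3 build of the Drosophila melanogaster genome. The windows are the deposited rows whose start lies 500 bp into each kb, so they do not overlap, and they were chosen by position without use of the score. The whole series holds 252756 such windows in 2 profiles over 13 sequences, of which the can profile has the same 114670 positions. The contrast throughout is H3K27me3 against input within comr.

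H3K27me3 is histone H3 trimethylated on lysine 27, a mark written by Polycomb repressive complex PRC2 and bound by PRC1, which together keep developmental genes silent. In Drosophila it typically covers broad domains, many of them over homeobox and other transcription factor genes, and it is low over genes that are transcribed. The protein made by comr (cookie monster) belongs to the testis meiotic arrest complex tMAC, a regulator needed for transcription of spermatocyte and spermatid genes. Germ cells of comr mutants arrest as spermatocytes, so the testes hold early germ cells, arrested spermatocytes and the somatic cells of the testis but no spermatids.

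The males were comr homozygotes, 3 days old and kept at 23 °C, and 400 adult testes were the starting material for 2 biological replicates. Chromatin from 2 H3K27me3 libraries was set against 2 input libraries of the same genotype, and the authors combined all 4 into 1 profile. The can group, used below only as an outside measure, has the same age, tissue and design and is homozygous for can, which encodes a testis-specific TBP-associated factor. The comr mutation has no further allele name in the labels, and the files cannot show it, since no annotation of dm3 was at hand to place the comr gene, any other gene or a marker of the tissue. For the same reason every region below carries its position and no gene name. Whole testes mix cell types, so fewer cells with the mark and less mark per cell cannot be told apart.

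The value of a window is a score of H3K27me3 over input after a normalization abbreviated QN, with values on both sides of 0. Over the 6 sequences the window scores ran from -4.65 to 3.62, with quartiles at -0.35, 0.02 and 0.38, and 50.6% of windows were above 0. The read depth behind a score is unknown. With 1 profile there is no spread between animals or libraries and no test. Errors beside means are standard errors (SE) or SDs over windows or over 100 kb blocks with at least 50 windows, which describe scatter along the sequence only. The SEs take windows or blocks as independent. Neighbours were alike, with r = 0.30 for arm windows 1 kb apart and 0.51 for adjacent blocks, so the SEs are too small.

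Chromosome 4 stood far below every other sequence, and X stood highest. The mean score was 0.07 on X, 0.04 on 3R, 0.00 on 2R and 2L, -0.02 on 3L and -0.53 on chromosome 4. The SE over 100 kb blocks was 0.01 to 0.02 on the 5 large sequences and 0.04 on chromosome 4. X is the chromosome that males carry in a single copy, and chromosome 4 is the small dot chromosome, whose gene-bearing arm is packaged in large part like heterochromatin. On chromosome 4 all 13 blocks had a mean below 0, whereas 139 of 222 blocks on X and 454 of 959 blocks on the autosomal arms 2L, 2R, 3L and 3R had a mean above 0. Over all 1194 blocks the share above 0 was 49.7%.

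High windows were defined as the top 10% over the 6 sequences, at a score of at least 0.71, and low windows as the bottom 10%, at a score of at most -0.69. Ties at these limits brought the called shares to 10.3% and 10.2% of all windows. High windows made up 16.5% of X (95% Wilson interval 16.0 to 17.0), 8.97% of the 4 autosomal arms (8.79 to 9.16) and 1.95% of chromosome 4 (1.31 to 2.88). The intervals cover counting error only and take each window as independent of the others. Low windows made up 12.2% of X (11.7 to 12.6), 9.39% of the arms (9.20 to 9.58) and 39.5% of chromosome 4 (36.8 to 42.3). Chromosome 4 thus gave 1.08% of all windows and 4.16% of the low ones, but 0.20% of the high ones.

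X was over the background share at both ends of the distribution, and the window scatter moved with this. Scores of at least 1 occurred in 8.27% of X windows and 3.05% of arm windows, and scores of at most -1 in 5.69% of X windows and 3.34% of arm windows. The scatter between adjacent windows, the SD of their differences divided by the square root of 2, was 0.64 on X and 0.45 on the arms. The part of this scatter in the X shares was not tested. Among the arms, high windows outnumbered low ones only on 3R, with 1.20 high windows per low window, against 0.93 on 2L, 0.89 on 2R and 0.81 on 3L.

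**Figure D1:**
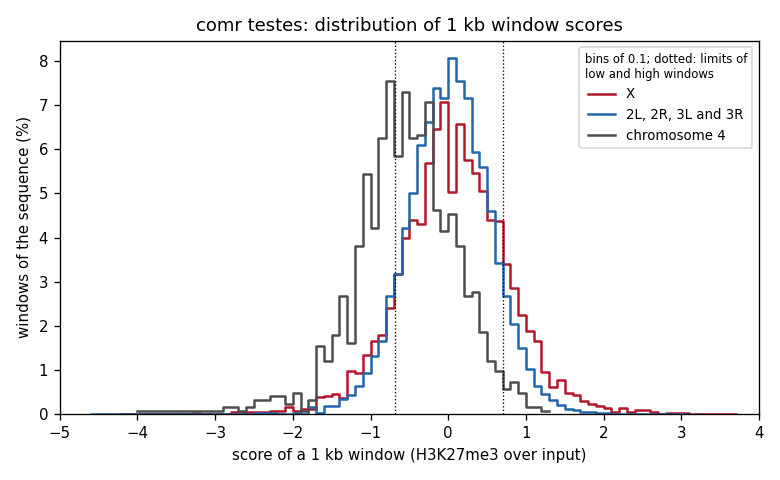
Share of 1 kb windows (vertical axis, percent of the windows of each sequence) by score (horizontal axis, H3K27me3 over input, bins of 0.1) for X, the 4 autosomal arms together and chromosome 4 in comr testes. The chromosome 4 curve is shifted to the left, with a median of -0.53, and X has wider tails on both sides than the arms.

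Along the chromosomes the mark was not spread evenly. The means of regions of a whole Mb differed by more than their SE over windows, which takes neighbouring windows as independent and is too small. They differed by less than single windows did, with an SD of 0.13 over regions and 0.58 over windows. Over 119 regions of 1 Mb with at least 500 windows, the mean score ran from -0.52 to 0.35, and the SE over windows of the regions named here was 0.02. The highest region was 1 to 2 Mb of X, at 0.35, where 27.4% of windows were high. The highest regions of the other large sequences were 20 to 21 Mb of 2R at 0.30, 23 to 24 Mb of 3R at 0.25, 1 to 2 Mb of 3L at 0.23 and 1 to 2 Mb of 2L at 0.20. All of these lie toward the telomere of their chromosome arm.

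The lowest regions had no such common place. The first Mb of 2R, which faces the centromere, stood at -0.30, with 27.3% of windows low and 4.32% high. On 2L the lowest region was 21 to 22 Mb at -0.19, also toward the centromere. The lowest region of 3R was 5 to 6 Mb at -0.21, of 3L 16 to 17 Mb at -0.17 and of X 11 to 12 Mb at -0.13, each inside its arm. The first Mb of chromosome 4 stood below all of these at -0.52.

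The telomere side was resolved by distance from the last window with a value. From 250 kb to 5 Mb the mean score was above 0 on all 5 large sequences in each of 4 distance bins. Between 500 kb and 1 Mb it was 0.40 on 2L, 0.34 on 2R, 0.26 on 3R, 0.24 on X and 0.12 on 3L, with SEs of 0.02 to 0.03 over windows. Windows in that bin were high in 24.0% of cases on 2L and 21.5% on 2R, against 10.3% over all windows. Further than 5 Mb from both ends, the mean was 0.01 on X, 0.00 on 3R, -0.02 on 2L, -0.04 on 2R and -0.05 on 3L.

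The outermost stretch had a mean below 0 on 4 of the 5 sequences, on 3L by little more than its SE. In the last 100 kb with values the mean score was -0.26 ± 0.05 on 2L, -0.24 ± 0.06 on X, -0.22 ± 0.06 on 3R and -0.07 ± 0.06 on 3L (SE over 82 to 96 windows). On 2R it was 0.07 ± 0.05 (SE over 85 windows). From 100 to 250 kb the low score continued on 2L at -0.27 ± 0.04 and on X at -0.25 ± 0.07, where 32.0% of positions had no value. The sequence next to the repeats at Drosophila telomeres is known for its own form of silencing, described as telomere position effect. Whether it has a part in these scores was not tested.

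Toward the centromeres most means were below 0, with X the main exception. In the 100 kb that face the centromere all 5 sequences had a mean below 0, from -0.36 ± 0.07 on 2R to -0.08 ± 0.07 on 3L. From 100 kb to 1 Mb X stood above 0 in each of 3 bins, with means of 0.11 ± 0.06, 0.08 ± 0.05 and 0.07 ± 0.04, each less than 2 SEs above 0, and 45.4% of positions in the last of these bins had no value. In the same bins 2R stood between -0.41 and -0.25, 2L between -0.29 and -0.06 and 3L between -0.14 and -0.05. 3R changed within this span, with -0.28 ± 0.03 between 250 and 500 kb and 0.03 ± 0.03 between 500 kb and 1 Mb (SE over 248 and 472 windows). Pericentric heterochromatin carries mainly methylation of lysine 9 rather than of lysine 27 of histone H3. Missing positions moved with this place too, with up to 47.0% of positions without a value in the innermost 100 kb, on 2L, against 4.53% over the 6 sequences, and their part in these means was not tested.

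**Figure D2:**
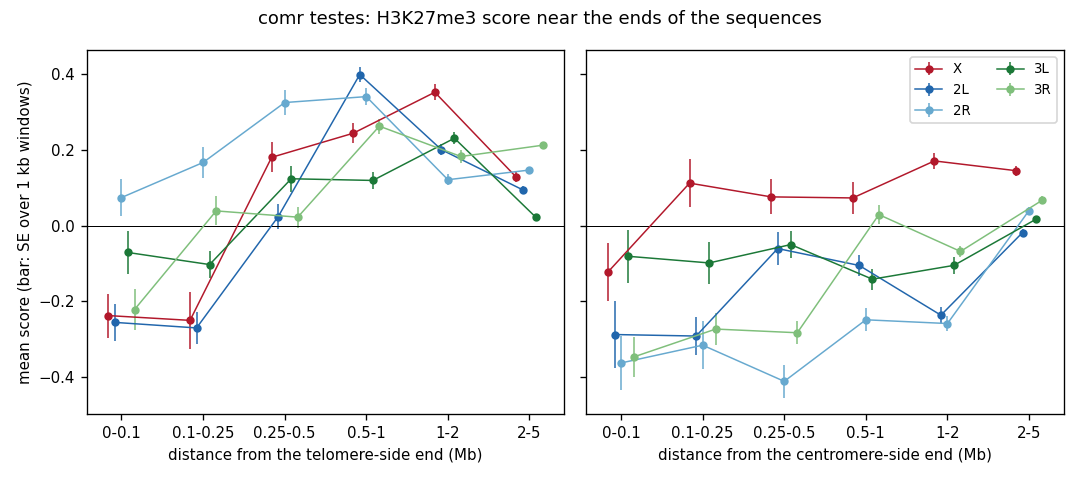
Mean score (vertical axis, bars are SE over 1 kb windows) by distance in Mb from the telomere-side end (left) and from the centromere-side end (right) of X, 2L, 2R, 3L and 3R in comr testes. All 5 sequences are above 0 between 0.25 and 5 Mb from the telomere-side end, and 4 of them are below 0 in its last 0.1 Mb.

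The 20 highest of 1194 blocks had means of 0.53 to 0.68, and a median of 42.5% of their windows were high. X held 8 of them, 3R 6, 2L 3, 2R 2 and 3L 1. Of all 1194 blocks X had 222, 3R 279, 2L 226, 2R 210 and 3L 244, and counts this small do not rank the sequences. The highest was 18.1 to 18.2 Mb of X at 0.68 ± 0.07, followed by 17.2 to 17.3 Mb of 3R at 0.67 ± 0.05 and 10.9 to 11 Mb of 3L at 0.67 ± 0.05 (SE over 100 windows each). These 3 blocks do not differ from each other beyond their SE. Low windows made up 0 to 5.32% of each of the 20 blocks.

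Some of the high blocks stood side by side. On X the blocks 1.3 to 1.4 and 1.4 to 1.5 Mb had means of 0.62 ± 0.06 and 0.66 ± 0.06, and the blocks 4.3 to 4.4 and 4.4 to 4.5 Mb had 0.64 ± 0.06 and 0.54 ± 0.07. On 3R the blocks 17.2 to 17.3 and 17.3 to 17.4 Mb had 0.67 ± 0.05 and 0.53 ± 0.05. The other 3R blocks among the 20 included those at 2.7 to 2.8 Mb with 0.64 ± 0.05, at 12.5 to 12.6 Mb with 0.62 ± 0.05 and at 6.4 to 6.5 Mb with 0.60 ± 0.04. Of the 100 highest blocks, 49 had another of the 100 directly beside them, and of the 100 lowest blocks 47 had another of the lowest beside them. The count that blocks without order along the sequence would give was not computed. The highest blocks of 2R and 2L were 18.1 to 18.2 Mb at 0.58 ± 0.05 and 3.5 to 3.6 Mb at 0.57 ± 0.05.

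The 20 lowest blocks had means of -0.83 to -0.45, and 9 of them were on chromosome 4, which has 13 of the 1194 blocks. The lowest of all was 0.1 to 0.2 Mb of chromosome 4 at -0.83 ± 0.07, where 60.8% of 97 windows were low and none was high. Among the other sequences 2L held 4, 2R 3, 3L 2, and 3R and X 1 each, counts too small to rank these sequences. The lowest block outside chromosome 4 was 10.2 to 10.3 Mb of 2L at -0.70 ± 0.06, and its neighbour 10.3 to 10.4 Mb had -0.57 ± 0.05. Both lie far from either end of the arm. The lowest block of 2R was 6.4 to 6.5 Mb at -0.62 ± 0.07, again inside the arm, with 41.3% of its windows low.

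Within chromosome 4 the lowest block means lay on both sides of the middle, without a steady fall toward the ends. From the centromere side the block means were -0.51, -0.83, -0.69 and -0.61 in the first 4 blocks. The middle blocks from 0.4 to 0.9 Mb had -0.38, -0.38, -0.51, -0.21 and -0.45. The outer 4 blocks, from 0.9 to 1.3 Mb, had -0.60, -0.49, -0.62 and -0.70. The first block, at -0.51, and the block at -0.49 thus stood close to the lowest middle block, at -0.51. The SE over windows was 0.05 to 0.10. The highest block, 0.7 to 0.8 Mb at -0.21 ± 0.06, was the only chromosome 4 block that was not among the 100 lowest of the 6 sequences, and 5.05% of its windows were high.

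**Figure D3:**
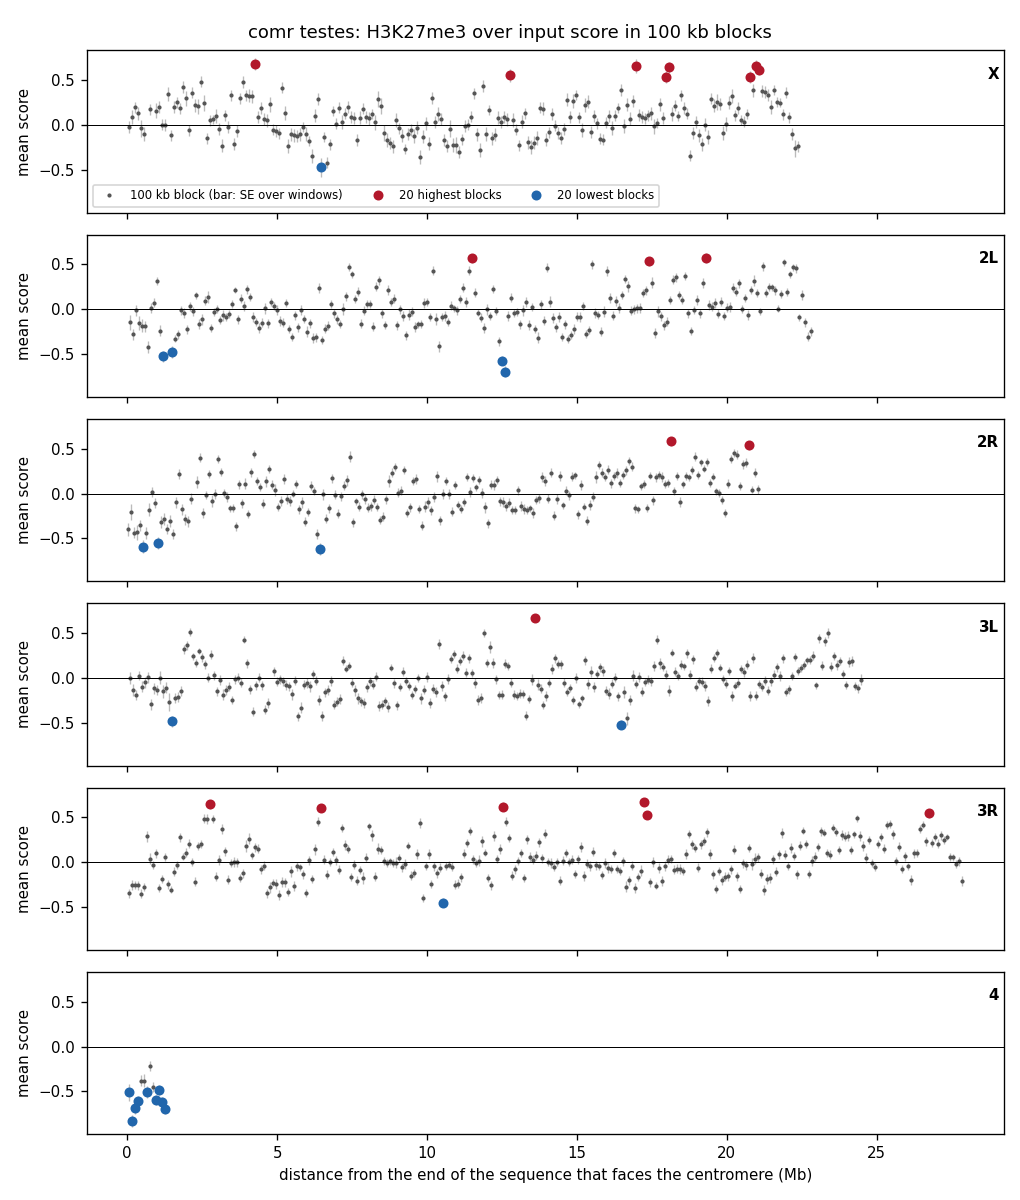
Mean score of each 100 kb block (vertical axis, bars are SE over its 1 kb windows) by distance in Mb from the end that faces the centromere (horizontal axis) in comr testes, with the 20 highest blocks in red and the 20 lowest in blue. The high blocks are scattered over X and the arms between 0.53 and 0.68, and 9 of the 20 lowest lie on chromosome 4.

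Most 100 kb blocks held windows of both kinds, with a median of 8% high and 8.79% low windows over all blocks, and 14.99% high and 11.1% low on X. Blocks rich in one kind were not rich in the other. No block had at least 20% of its windows high and at least 20% low, whereas 145 blocks reached 20% high and 138 reached 20% low. Across the 1194 blocks the shares of high and low windows correlated at r = -0.50. Both shares come from the same windows and so are not independent, although a block could reach 20% of each. This r is a description of the blocks, and they are not replicates. On X, where windows of both kinds were frequent, 59 of 222 blocks reached 20% high, 38 reached 20% low and none reached both.

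The likeness of single windows was weak, was highest at 1 kb and mostly fell with distance. Scores of windows 1 kb apart correlated at r = 0.30 on the arms (91593 pairs), 0.17 on X (20502 pairs) and 0.30 on chromosome 4 (1199 pairs). At a distance of 20 kb r was 0.16 on the arms, 0.09 on X and 0.12 on chromosome 4, and at 100 kb it was 0.06, 0.03 and 0.01. At 500 kb X stood above the arms, at 0.04 against 0.02. Pairs of windows share the libraries and, at 1 kb, DNA fragments that span their border. Means of adjacent 100 kb blocks correlated at r = 0.51 over 1183 pairs. A block mean averages out much of the window scatter, so this r cannot be set against those of single windows. Arm windows 1 kb from a high window averaged 0.31 and those 50 kb away 0.11, against 0.01 for all arm windows. X windows at the same distances averaged 0.26 and 0.13, against 0.07 for all X windows.

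**Figure D4:**
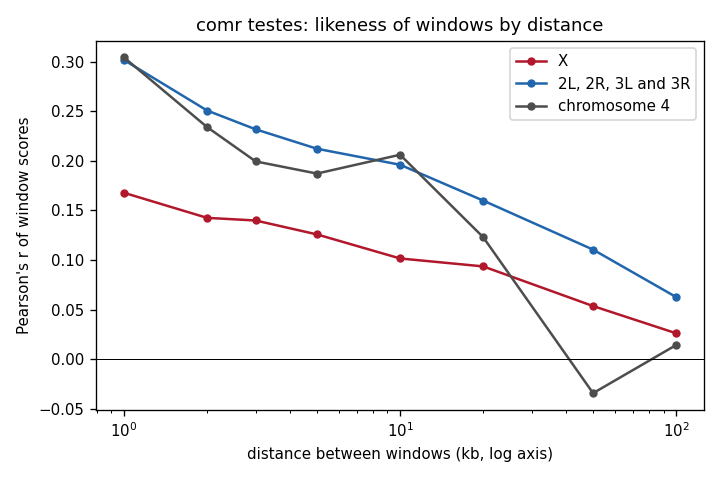
Pearson's r between the scores of pairs of 1 kb windows (vertical axis) by the distance between them in kb (horizontal axis, log scale) for X, the 4 autosomal arms and chromosome 4 in comr testes. The arms start at 0.30 at 1 kb and are at 0.06 at 100 kb, and X lies below the arms at each distance shown.

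High windows formed domains on X and every arm. An enriched domain was a run of high windows, bridged over gaps of up to 3 kb, that reached a length of 5 kb. There were 1248 of them with a median length of 7 kb, and they covered 11.8 Mb. They held 52.3% of the high windows, and 62.8% of the high windows had no high neighbour on either side. X held 410 domains (19.6 per Mb of windows), the arms 836 (9.04 per Mb) and chromosome 4 held 2, of 5 and 6 kb. By the joining rule 2 high windows with 3 kb between them already make a domain. A sequence with a larger share of high windows, such as X with 16.5% against 8.97% on the arms, therefore gets more and longer domains. Whether the domain counts go beyond what these shares give was not tested. Of the domains, 86 reached 20 kb, with 33 on X (1.58 per Mb), 53 on the arms (0.57 per Mb) and none on chromosome 4. Among the arms 3R had 20, 2L 12, 2R 11 and 3L 10.

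The 10 longest enriched domains spanned 43 to 77 kb and averaged 0.58 to 0.83. The longest lay on 2R from 20680050 to 20757049 (77 kb), with a mean of 0.81 ± 0.05 (SE over 77 windows) and 52 of its 77 windows high. Its flanks, 5 to 20 kb outside, averaged 0.16 on the left and 0.09 on the right, so the score fell away on both sides. The next, on 2R from 18102050 to 18173049 (71 kb), averaged 0.76 ± 0.05, with flanks at 0.19 and 0.26. High scores inside follow from the choice of the windows, whereas the flanks were not used to choose.

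Other long domains sat inside wider stretches of raised score. The 3R domain from 17240050 to 17307049 (67 kb) averaged 0.79 ± 0.05, and its flanks stood at 0.56 and 0.38. The X domain from 18138050 to 18187049 (49 kb) averaged 0.82 ± 0.09, with flanks at 0.78 and 0.65, less than 2 SEs below it. It lies in the highest 100 kb block of all. The X domain from 18469050 to 18536049 (67 kb) is close by and had low flanks, at 0.17 and 0.18, beside a mean of 0.66 ± 0.07. The densest of the 10 was the shortest, on 3R from 26732050 to 26775049 (43 kb), where 31 of 43 windows were high and the mean was 0.83 ± 0.07.

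The other 4 lay on 2L, 3L, X and 2R. The 2L domain from 11339050 to 11392049 (53 kb) averaged 0.68 ± 0.07, and the 3L domain from 22447050 to 22500049 (53 kb) averaged 0.58 ± 0.07, the lowest of the 10. The X domain from 4321050 to 4372049 (51 kb) averaged 0.73 ± 0.09 and the 2R domain from 16775050 to 16824049 (49 kb) averaged 0.76 ± 0.06. In the 10 domains 43.4 to 72.1% of windows were high, so none is an unbroken run of high windows. Whether the other windows carry less of the mark or fall below the limit through window scatter was not tested. The longest unbroken run of high windows anywhere was 9 kb, on X.

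The surroundings of the 86 domains of at least 20 kb were raised as a group. At each kb from 5 to 30 kb outside their edges the mean score lay between 0.28 and 0.45, against 0.01 for all windows of the arms and 0.07 for those of X. From 1 to 9 kb inside the edge it lay between 0.55 and 0.72. The 4 kb just outside an edge were lower, at 0.14 to 0.20, which follows from the joining rule, since none of these windows can be high.

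Low windows called the same way gave 1222 depleted domains with a median length of 7 kb and a total of 10.7 Mb. Chromosome 4 held 37 of them, and 58.0% of its windows lay inside one, against 11.0% on X and 8.13% on the arms. With 39.5% of its windows low, the joining rule gives chromosome 4 more and longer depleted domains. Whether its domains go beyond what that share gives was not tested. Of the 58 depleted domains of at least 20 kb, 13 lay on chromosome 4 (10.5 per Mb), 9 on X (0.43 per Mb) and 36 on the arms (0.39 per Mb). The arms differed among themselves, with 13 on 2L, 12 on 3L, 9 on 2R and 2 on 3R. 3R, the largest arm, thus had the most long enriched domains of the arms and the fewest long depleted ones.

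The longest depleted domain ran on chromosome 4 from 1182050 to 1260049 (78 kb), with a mean of -0.89 ± 0.06 (SE over 74 windows). The second, on chromosome 4 from 103050 to 163049 (60 kb), averaged -0.92 ± 0.09, and its flanks were low too, at -0.76 and -0.87. Of the 10 longest, 5 were on chromosome 4, 3 on 2R, and 1 each on 2L and 3L. The 2R domains from 479050 to 517049 (38 kb) and from 575050 to 618049 (43 kb), both in the Mb that faces the centromere, averaged -0.80 ± 0.10 and -0.83 ± 0.07. The third of 2R lay inside the arm from 6425050 to 6469049 (44 kb), at -0.78 ± 0.08 with flanks at -0.39 and -0.56. On 2L the domain from 9172050 to 9210049 (38 kb) averaged -0.67 ± 0.09, and on 3L the domain from 16041050 to 16077049 (36 kb) averaged -0.56 ± 0.08.

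**Figure D5:**
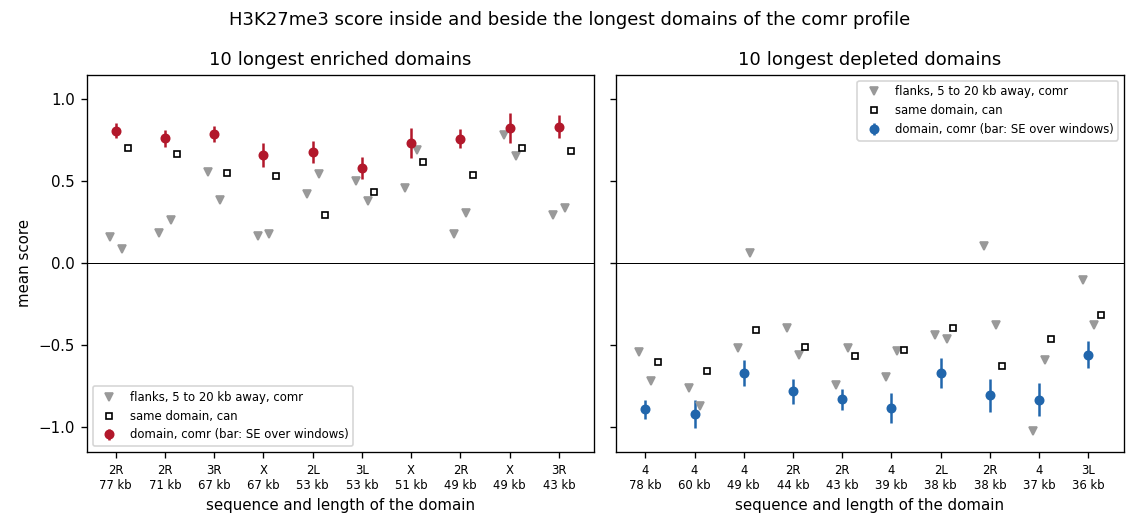
Mean score (vertical axis) of the 10 longest enriched domains (left, red) and the 10 longest depleted domains (right, blue) of the comr profile, with SE over windows, beside the means of their flanks 5 to 20 kb outside (grey triangles, left and right) and of the same positions in can (open squares). All 10 enriched domains are above 0 in both mutants, between 0.58 and 0.83 in comr, and all 10 depleted ones are below 0.

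The can libraries had no part in choosing these regions, and the likeness of both profiles grew with the size of the region. The comr and can scores correlated at r = 0.31 over single windows and 0.85 over 100 kb blocks, and neither windows nor blocks are replicates. In can 51.2% of windows and 51.5% of blocks were above 0. Of all 1248 enriched domains 1068 had a mean above 0 in can, and of all 1222 depleted domains 998 had a mean at or below 0 in can. On X 105 of 283 depleted domains had a mean above 0 in can. All 86 enriched domains of at least 20 kb had a mean above 0 in can, with a median domain mean of 0.71 in comr and 0.48 in can. Of the 58 depleted domains of at least 20 kb, 54 had a mean at or below 0 in can, with medians of -0.63 in comr and -0.40 in can. The 4 with a can mean above 0 were among the 9 on X. The smaller scores in can are partly fixed by choosing regions on comr, and the normalization gives both profiles the same distribution. The 20 highest comr blocks were all above 0 in can, with medians of 0.59 in comr and 0.43 in can, and the 20 lowest were all below 0 in can, with medians of -0.56 in comr and -0.41 in can.

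Positions without a value were 4.53% of the 6 sequences, from 2.75% on 3R to 6.65% on X and 6.80% on chromosome 4. They fell into 1370 gaps, of which the longest, 113 kb, followed 21.43 Mb of 2L. Windows beside a gap were low in 19.8% of cases and high in 11.3%, against 10.2% and 10.3% of all windows. The SD over windows was 0.78 beside gaps and 0.70 elsewhere on X, and 0.71 to 0.75 beside gaps and 0.53 to 0.54 elsewhere on the arms. Windows beside gaps were 2.26% of all windows.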

How the data were processed

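H3K27me3 and input libraries of comr and can testes were made with a small-input ChIP kit (True MicroChIP and MicroPlex, Diagenode) and read on a MiSeq, per the labels' protocols. The authors deposited 1 score per position and genotype, which sets H3K27me3 over input in 1000 bp bins and then applies a step named QN, per the file headers. Per the submitters' processing notes the genome build is dm3. The aligner, read filters, log base and the way the replicates were combined were not given in the sources used here. The deposited rows are 100 bp apart and carry scores with 2 decimals, and the sorted scores of both profiles are identical, so the total amount of the mark cannot be read from them. A row was taken as the centre of its 1 kb window, in coordinates as deposited. Each sample's depth is unknown.

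Window means, high and low windows and domains were computed with Python 3.11.15, numpy 2.4.6, pandas 2.3.3 and scipy 1.17.1. Domain calling was first run on simulated scores, with raised stretches planted on the arms over flat, independent scatter. That run does not cover the wider scatter of X, the low scores of chromosome 4 or the correlation between windows. Named regions are the 20 highest and 20 lowest blocks, the extreme block and Mb region of each sequence, and the 10 longest domains of each kind. The windows, lists and rules were chosen with earlier results of these data known. The planned gene lists were not used here, since the gene table at hand follows another assembly, and for the same reason no sequence is shown. Alternative thresholds, gaps and rows were also tried.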

Additional observations from a re-analysis of the deposited data

How the results depend on the processing

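No paired analysis was possible because both replicates and their inputs were deposited as 1 combined profile, and no replicate could be left out. The gene-list alternative was not run for want of a dm3 annotation. Alternatives without X, without chromosome 4 or without windows beside gaps, and those for long depleted domains, were chosen after seeing the data. Outside enriched domains the mean was -0.0541 on X and -0.0508 on the arms, both reversed; removing windows picked by high score lowers any mean. At the top 5% and top 20%, high windows were 9.84% and 27.8% of X, 4.06% and 18.7% of the arms, and 0.57% and 4.30% of chromosome 4. At the bottom 5% and 20%, low windows were 7.18% and 21.7% of X, 4.25% and 19.6% of the arms, and 24.6% and 56.4% of chromosome 4. X stayed above the arms in both shares under these settings. Enriched domains (1248) numbered 488 at the top 5%, 2441 at the top 20% and 73 with no gaps joined. Those of at least 20 kb (86) numbered 13, 333 and 0 under the same settings, and 216 with gaps of up to 5 kb joined. Depleted domains (1222) numbered 436 at the bottom 5%, 2604 at the bottom 20% and 47 with no gaps joined, and those of at least 20 kb (58) numbered 8, 314 and 0. The limits were recomputed when a sequence was left out. Leaving out X gave 64 long enriched domains on the other sequences, which held 53 of the 86 under the reported limit. Leaving out chromosome 4 gave 45 long depleted ones, and the same sequences held 45 of the 58 under the reported limit. The other 32 recomputed values of sequences and counts, and all 122 of named blocks and domains, stayed within their 95% interval over windows or blocks or within 1.5 times the count. Unknown depth limits every score.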

Other observations

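The 7 sequences of dm3 outside the 6 described above held 11708 windows of the comr profile, and all 7 had a mean score below 0. The mean was -0.22 on 2RHet, -0.21 on 3RHet, -0.19 on 2LHet, -0.19 on YHet, -0.13 on 3LHet, -0.12 on U and -0.04 on XHet. These hold mapped and unplaced parts of heterochromatin. Each mean lay well above the -0.53 of chromosome 4. XHet, with 140 windows, had 15.7% of them at or above the limit for high windows and 18.6% at or below that for low windows.

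Some scores recur far more often than their neighbours, in a pattern that bears on their scale. The commonest of the 649 values, 0.23, stood in 32126 rows, 3.86 times the median of the surrounding values. The values -1.77, -0.77, 1.23 and 2.23, each a whole unit from it or from the next, stood in 1667, 22472, 3110 and 247 rows, 18.1, 8.64, 4.91 and 13.7 times the median of their neighbours. Recurring values at 0.81 and 1.81 stood in 10397 and 697 rows, where a log2 scale puts ratios of 3 to 2 and 3 to 1 if 0.23 stands for equal counts. That spacing is what log2 ratios of small whole numbers give. In comr the value 0.23 stood in 1.53% of X rows and 2.85% of arm rows, and in can in 3.76% of X rows and 2.30% of arm rows. The sorted values of both profiles are the same, so these values can have come from either profile or from elsewhere, and a unit of the comr score is not called a doubling here.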
